A study of Mus musculus with 7 samples.

Results

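The genes described here are 36 genes of damage-associated microglia and other phagocytes, out of 23312 features tested on the arrays. They were chosen by name from what is known of these cells, with earlier results of these data known. All 36 were found by their gene name in the array files, with Chi3l3 listed under its newer symbol Chil3, and all 36 passed the filter for signal over background. Brain RNA came from male mice of the C57BL/6N background and was hybridised in 1 colour to Agilent arrays, 1 sample per array. There were 3 arrays of wild type mice and 3 of Pla2g2e -/- mice, which lack a secreted phospholipase A2. All 6 were taken 3 days after a transient occlusion of the middle cerebral artery (MCAO), in which a brain artery is blocked for 60 min and then reopened. The seventh array was of a wild type brain titled sham, with no day given. The treatment note of the submitters gives the occlusion for every sample, the sham included. How the knockout allele was made, which hemisphere was sampled and whether replicates were separate animals are not given here by the sources, and the p-values reflect no more than the spread among these arrays, which could be technical.

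Damage-associated microglia are brain-resident phagocytes that meet dying cells, lipid debris or myelin and switch on a common set of genes. The receptor TREM2 binds lipids and apoptotic cells and signals through the adaptor TYROBP. Engulfed material is digested by lysosomal cathepsins and lipases, and its lipid is stored in droplets or exported with apolipoprotein E. After a stroke, monocytes from the blood enter the lesion and become macrophages that express many of the same genes, so the set does not separate resident from infiltrating cells. In bulk tissue, fewer cells of a type and less RNA per cell cannot be told apart.

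Each gene was read by a 60-base probe, and the deposited sequences of 5 probes are shown because their genes range from Arg1, which fell below background on 1 array, to Apoe, with one of the smallest differences between arrays. They are written 5′ to 3′ as the array files give them, in the sense of the transcript.
Arg1: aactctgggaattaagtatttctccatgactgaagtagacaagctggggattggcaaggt
Lyz2: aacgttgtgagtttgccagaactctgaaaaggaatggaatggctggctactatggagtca
Tyrobp: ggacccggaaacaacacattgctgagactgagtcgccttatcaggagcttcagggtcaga
Fcgr3: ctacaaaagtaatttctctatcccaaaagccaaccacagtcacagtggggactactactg
Apoe: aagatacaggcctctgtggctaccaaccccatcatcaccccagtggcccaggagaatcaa
The design places these probes on the mm9 assembly at chr10:24636194-24636253 for Arg1, chr10:116719175-116719234 for Lyz2, chr1:172984129-172984188 for Fcgr3 and chr7:20281732-20281791 for Apoe, all on the minus strand, and gives no position for Tyrobp. Some members have close relatives (Lyz1 beside Lyz2, Chil4 beside Chi3l3, other Fc receptors beside Fcgr3), and whether these probes also bind the relatives was not tested. The only probe of Fabp5 is placed by the design on chromosome 9, at chr9:57332244-57332303, while RefSeq has the gene on chromosome 3, so its values are uncertain.

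Signals below are log2 values with the 75th percentile of their own array set to 0, so that 1 unit is a doubling. Levels of different genes come from different probes and are not compared. The array labelled wild type day 3 replicate 1 stood apart from the other 6: its log2 signals across genes correlated with theirs at 0.857 to 0.916, against 0.968 to 0.991 among the others. It entered the wild type day 3 group by its label, and both sets of values, including and leaving out that array, are given for each result that rests on it. The knocked-out gene did not separate all arrays by label. The brighter Pla2g2e probe read -6.89, -3.68 and -3.36 on wild type day 3 replicates 1 to 3, -4.44, -5.83 and -4.97 on knockout replicates 1 to 3, and -4.69 on the sham. A dimmer Pla2g2e probe rose well above background only on wild type replicates 2 and 3 and the sham, at -6.72, -6.50 and -6.83, and on neither the knockout arrays nor wild type replicate 1. Which part of the gene is deleted is not given, so a probe outside it would check nothing. All knockout arrays shared a slide that held no wild type array, and the wild type and sham arrays shared another, so that slide cannot be told apart from genotype. Wild type replicate 1 was lower than each other array in 35 of the 36 genes (34.3% of all features). It was higher than each in 12 of 12 neuron markers (43.9%). The sham lay within the range of the 5 other day 3 arrays in 17 of the genes (53.3%), below it in 13 (24.9%) and above it in 6 (21.8%). Whether these 2 samples were exchanged was not tested, and every comparison with wild type or sham is of arrays as labelled.

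**Figure D1:**
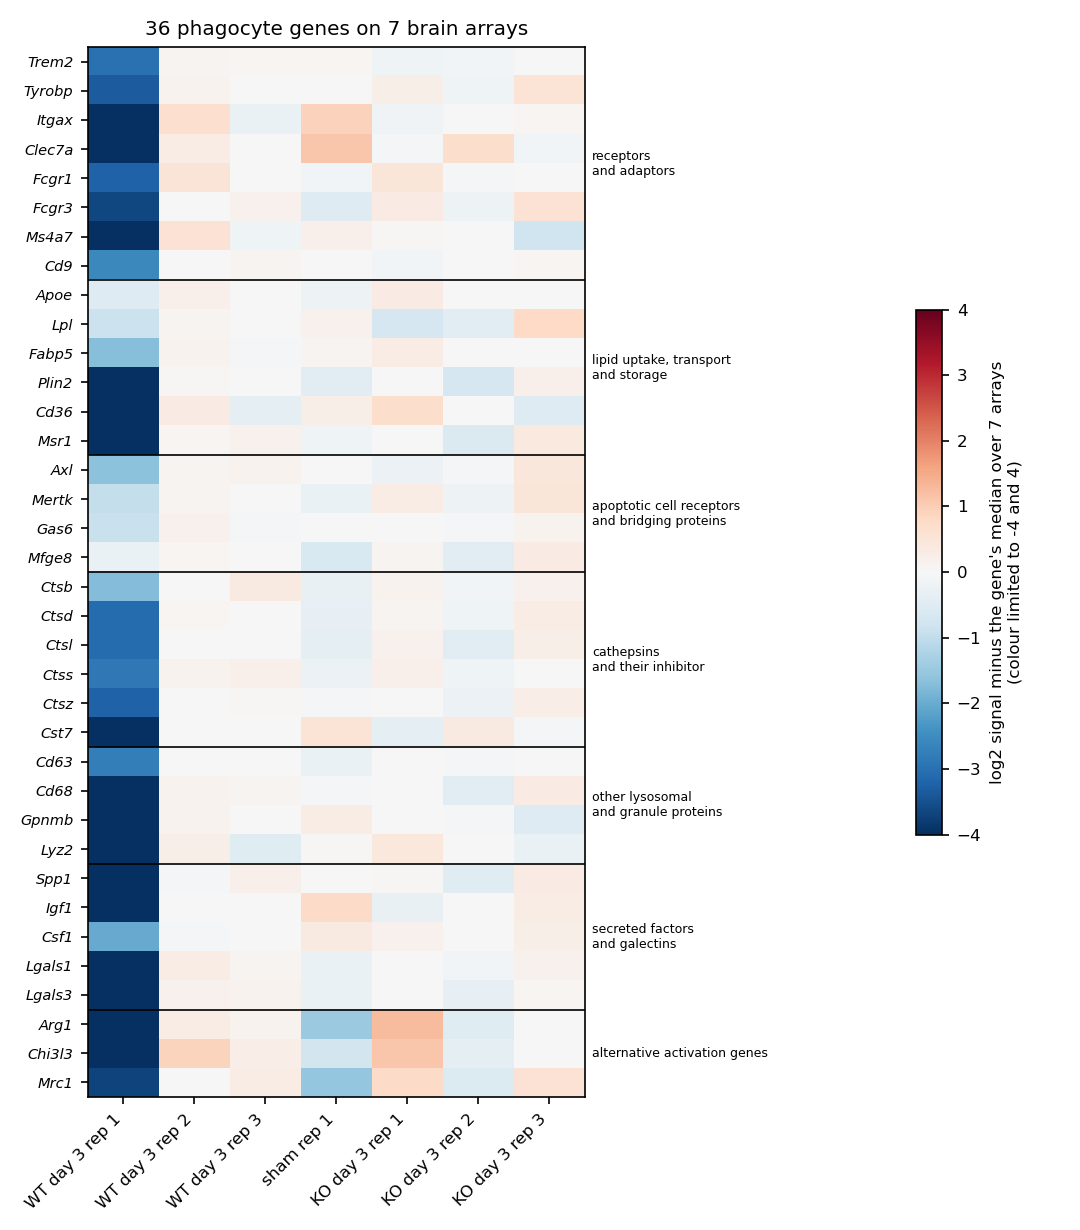
Heat map of the 36 genes (rows, grouped by role) on the 7 arrays (columns; WT, wild type; KO, knockout). Colour is the log2 signal minus the gene's own median over the 7 arrays, limited to -4 and 4. The column of wild type day 3 replicate 1 is blue in every row, while the sham column is closer to the 5 other day 3 columns. The sham departs most from these in the bottom rows, the alternative activation genes, where it is lower, and in Clec7a, Itgax and Igf1, where it is higher.

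On wild type day 3 replicate 1, 35 of 36 members, all but Mfge8, read lower than on each of the other 6 arrays, the sham included. Of all features 34.3% did so. The members were chosen with earlier results of these data known, so these counts are a description and not a test. The drop was at least 2-fold below every other array for 31 of 36 members (13.1% of all features) and at least 8-fold for 20 of 36 (3.06%). Its median over the members was 3.13 log2 units, counted to the lowest of the other arrays. The drop differed widely with the role of the gene. Its median was smallest, at 0.74, for receptors and bridging proteins of apoptotic cells. It was 5.23 for secreted factors and galectins and largest, at 9.71, for the 3 alternative activation genes. Arg1, among the latter, was not well above background there and entered that median at its own value.

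Among the receptors and adaptors, all 8 genes were lowest on that array, by 2.45 to 4.96 log2 units. Trem2, the lipid-sensing receptor, read 1.77, 4.87 and 4.85 on wild type replicates 1 to 3, 4.58, 4.66 and 4.76 on knockout replicates 1 to 3, and 4.84 on the sham. Tyrobp, its signalling adaptor, read 1.40, 4.87 and 4.73 in wild type, 4.96, 4.57 and 5.27 in knockout and 4.72 on the sham. Both genes of the receptor pair were thus within 1 log2 unit on 6 arrays and about 3 units lower on the other.

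Clec7a, which encodes the beta-glucan receptor dectin-1, read -4.51, 0.76 and 0.48 in wild type, 0.42, 1.19 and 0.37 in knockout and 1.57 on the sham. Itgax, the CD11c integrin chain, read -5.80, 0.10 and -0.85 in wild type, -0.69, -0.57 and -0.49 in knockout and 0.37 on the sham. For both of these genes the sham was the highest of the 7 arrays. The Fc receptor genes Fcgr1 and Fcgr3, which bind antibody-coated targets, were 8.78-fold and 8.76-fold lower on wild type replicate 1 than on the next lowest array. Ms4a7, a membrane protein gene of macrophages, was 23.5-fold lower there, and the tetraspanin gene Cd9 5.47-fold.

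The genes of lipid uptake, transport and storage split. Apoe, the main lipid carrier of the brain and a product of astrocytes as well as microglia, read 6.21, 6.93 and 6.76 in wild type, 7.07, 6.74 and 6.71 in knockout and 6.54 on the sham. Lpl, lipoprotein lipase, read 0.73, 1.69 and 1.59 in wild type, 0.92, 1.15 and 2.38 in knockout and 1.76 on the sham. For these genes wild type replicate 1 was lowest by only 0.33 and 0.20 log2 units, less than the range of 0.36 and 1.46 among the 5 other day 3 arrays.

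The scavenger receptor and droplet genes behaved otherwise. Msr1, a scavenger receptor for modified lipoprotein, had no signal well above background on that array and read 0.16 to 1.13 on the other 6 arrays, at least 260-fold higher on the lowest of them. Here and below such a bound replaces the probe's own value by the dimmest signal that still counted as well above background on the array. Plin2, a coat protein of lipid droplets, was 40.1-fold lower on wild type replicate 1 than on the next lowest array, and the fatty acid receptor gene Cd36 was 17.0-fold lower. The probe named Fabp5, a fatty acid carrier gene, was 3.04-fold lower.

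The receptors and bridging proteins of apoptotic cells had the smallest median drop. Axl read -0.03, 1.72 and 1.74 in wild type, 1.38, 1.55 and 2.07 in knockout and 1.60 on the sham. Mertk, like Axl a receptor kinase for dying cells coated with GAS6, read -0.58, 0.48 and 0.36 in wild type, 0.65, 0.15 and 0.85 in knockout and 0.10 on the sham. Gas6 itself, the ligand, was 1.73-fold lower on wild type replicate 1 than on the next lowest array. Mfge8, which bridges phosphatidylserine to integrins, was the exception among the 36 genes: it read 5.31 there and 4.97 on the sham, the lowest value, against 5.17 to 5.92 on the 5 other day 3 arrays.

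The genes of the cathepsins, proteases of the lysosome, were all lowest on the same array. Ctsb, Ctsd, Ctsl, Ctss and Ctsz were 2.72- to 8.04-fold lower on wild type replicate 1 than on the next lowest array. Ctsd read 3.65, 6.82 and 6.74 in wild type, 6.84, 6.56 and 7.04 in knockout and 6.41 on the sham. Cst7, an inhibitor of cathepsins, showed a larger drop: it read -6.96, -0.13 and -0.12 in wild type, -0.50, 0.22 and -0.16 in knockout and 0.42 on the sham, the highest of the 7.

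Other lysosomal and granule genes spanned both patterns. Gpnmb, a lysosomal glycoprotein gene, read -6.08, 3.13 and 3.00 in wild type, 2.99, 2.96 and 2.48 in knockout and 3.28 on the sham. Lyz2, the macrophage lysozyme, read -3.68, 2.63 and 1.90 in wild type, 2.81, 2.38 and 2.11 in knockout and 2.43 on the sham. The membrane protein genes Cd68 and Cd63 of lysosomes and endosomes were 17.6-fold and 5.59-fold lower on wild type replicate 1. Cd63 was also the steadiest of the 36 genes elsewhere, with a range of 0.08 log2 units over the 5 other day 3 arrays.

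Among secreted factors, Spp1 (osteopontin) read -2.66, 5.24 and 5.55 in wild type, 5.38, 4.84 and 5.65 in knockout and 5.33 on the sham. Lgals3, a galectin of phagocytes, read -3.17, 6.27 and 6.24 in wild type, 6.09, 5.77 and 6.18 in knockout and 5.83 on the sham. The related galectin gene Lgals1 was 37.4-fold lower on wild type replicate 1 than on the next lowest array. Csf1, a growth factor for microglia and macrophages, was 3.93-fold lower by its brightest probe.

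Igf1, a trophic factor made by microglia, carried 5 probes that disagreed. The 2 brightest, which lie 20 bases apart, were lower on wild type replicate 1 than on the next lowest array by 3.91 and 4.08 log2 units, and 2 others by 0.50 and 0.92. The remaining probe, at chr10:87378456-87378515 (mm9), read -2.12 to -1.82 over all 7 arrays, a range of 0.30. Its accession was not among those of the RefSeq gene table. The probes of Csf1, Ctsd, Lpl and Msr1, the other members with more than 1, were each lower on wild type replicate 1 than on every other array.

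**Figure D2:**
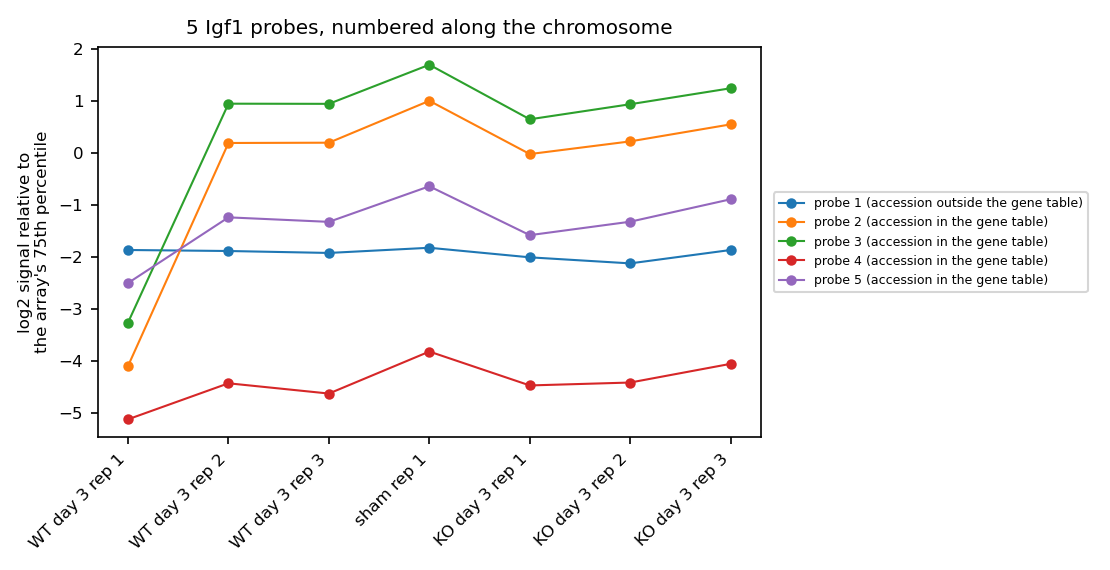
Log2 signal of the 5 Igf1 probes (lines, numbered by position on the chromosome; y axis relative to the array's 75th percentile) on the 7 arrays (x axis; WT, wild type; KO, knockout). Probes 2 and 3 fall by about 4 units on wild type day 3 replicate 1, and probe 1 stays between -2.12 and -1.82.

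The alternative activation genes, known from macrophages under interleukin-4, were low on wild type replicate 1 and, less so, on the sham. Arg1, which encodes arginase 1, was likewise not above background on wild type replicate 1 and read 2.89 and 2.73 on replicates 2 and 3. It read 3.85, 2.08 and 2.58 in knockout and 1.11 on the sham, which is at least 502-fold above wild type replicate 1. Chi3l3, a chitinase-like secreted protein, read -5.38, 5.96 and 5.32 in wild type, 6.18, 4.71 and 5.07 in knockout and 4.33 on the sham. Mrc1, the mannose receptor, read -2.11, 1.59 and 1.88 in wild type, 2.36, 1.03 and 2.17 in knockout and 0.04 on the sham. In all 3 genes the sham lay between wild type replicate 1 and the other day 3 arrays.

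**Figure D3:**
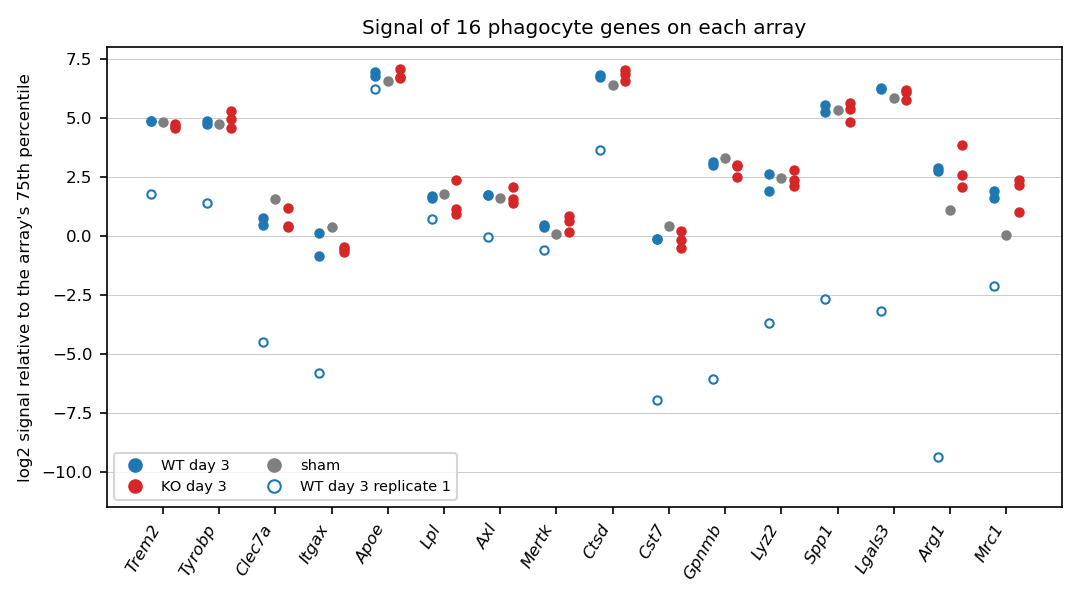
Log2 signal relative to the array's 75th percentile (y axis) of 16 of the genes (x axis); each point is 1 array, with wild type (WT) day 3 in blue, the sham in grey and knockout (KO) day 3 in red. The open blue circle, wild type day 3 replicate 1, is the lowest point of every gene shown, from 0.20 below the next for Lpl to 8.94 for Lgals3; that of Arg1 is not well above background and gives no exact distance.

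Setting the knockout against the wild type arrays of day 3 asks whether the loss of Pla2g2e changes the expression of these genes in the injured brain. With all arrays, 0 of 36 members passed limma's test at an adjusted p under 0.05, and 0% of all features did. None of the members reached an unadjusted p under 0.05 either, against 0.845% of all features. The smallest unadjusted p of a member was 0.213, for Csf1, and the smallest adjusted p 0.862. The groups overlapped in every member, while 4.53% of all features had none (1.88% with knockout higher and 2.65% lower). All 36 fitted differences were above 0 (46.9% of all features; 53.1% were below), with a median of 1.33, and the array labelled wild type replicate 1 decided this.

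Without that array the median difference was -0.03, with 11 members higher and 25 lower in knockout (50.4% and 49.6% of all features). Again 0 of 36 members passed (0% of all features), and 0 had an unadjusted p under 0.05 (1.63%). The 95% intervals of all 36 differences included 0. Their half-widths ran from 0.31 to 1.44 with a median of 0.63. The intervals are not adjusted for the number of features, so the half-widths are not limits of detection. Differences smaller than these, and larger ones too, could go undetected here.

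Among the receptors the difference shrank or changed sign without that array. The wild type mean of Trem2 was 3.83 ± 1.78 and the knockout mean 4.67 ± 0.09 (SD, n = 3 arrays each). The Trem2 difference, knockout minus wild type, was 0.84 ± 0.88 (SE) over all arrays and -0.19 ± 0.13 once wild type replicate 1 was left out, with a 95% interval of -0.52 to 0.14. That of Tyrobp was 1.26 ± 0.98 with all arrays and 0.13 ± 0.24 without that array (-0.50 to 0.76). Clec7a gave 1.75 ± 1.46 and 0.04 ± 0.31 in the same order, and Itgax 1.60 ± 1.54 and -0.21 ± 0.31.

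Among the lipid and clearance genes the 2 fits were close for some and far apart for others. Apoe differed by 0.20 ± 0.26 with all arrays and by -0.01 ± 0.17 without wild type replicate 1 (95% interval -0.46 to 0.44). For Lpl the values were 0.15 ± 0.48 and -0.15 ± 0.48, and without knockout replicate 3 the Lpl difference was -0.30. Axl gave 0.52 ± 0.55 and -0.06 ± 0.24, and Mertk 0.47 ± 0.37 and 0.13 ± 0.25. The fits lay further apart for Msr1, at 2.73 and -0.19, Plin2, at 1.83 and -0.18, and Cd36, at 1.61 and 0.08; the Msr1 probe was measured above background on only 2 of the 3 wild type arrays.

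The median difference with all arrays was 1.04 for the cathepsins and their inhibitor, 1.78 for other lysosomal and granule genes and 1.72 for secreted factors, beside 1.33 for the receptors and 1.12 for the lipid genes. Ctsd differed by 1.07 ± 0.90 with all arrays and by 0.03 ± 0.19 without wild type replicate 1, and the cathepsin inhibitor gene Cst7 by 2.26 ± 1.93 and -0.02 ± 0.24. Gpnmb gave 2.79 ± 2.57 and -0.26 ± 0.21, and Lyz2 2.15 ± 1.69 and 0.17 ± 0.32. Spp1 gave 2.58 ± 2.27 and -0.10 ± 0.28, and Lgals3 2.90 ± 2.64 and -0.24 ± 0.17. None of these differences exceeded the spread between replicates by the test.

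For the alternative activation genes the errors were wide. The Arg1 probe was above background on only 2 of the 3 wild type arrays, so its difference of 4.09 ± 3.43 with all arrays depends on how background is treated, and it was 2.64 with normexp background correction. Arg1 differed by 0.03 ± 0.55 without wild type replicate 1, with a 95% interval of -1.41 to 1.48. Mrc1 gave 1.40 ± 1.14 and 0.12 ± 0.45. Without that array the lowest difference among the 36 genes was that of Ms4a7, at -0.46 ± 0.37 (95% interval -1.42 to 0.51).

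**Figure D4:**
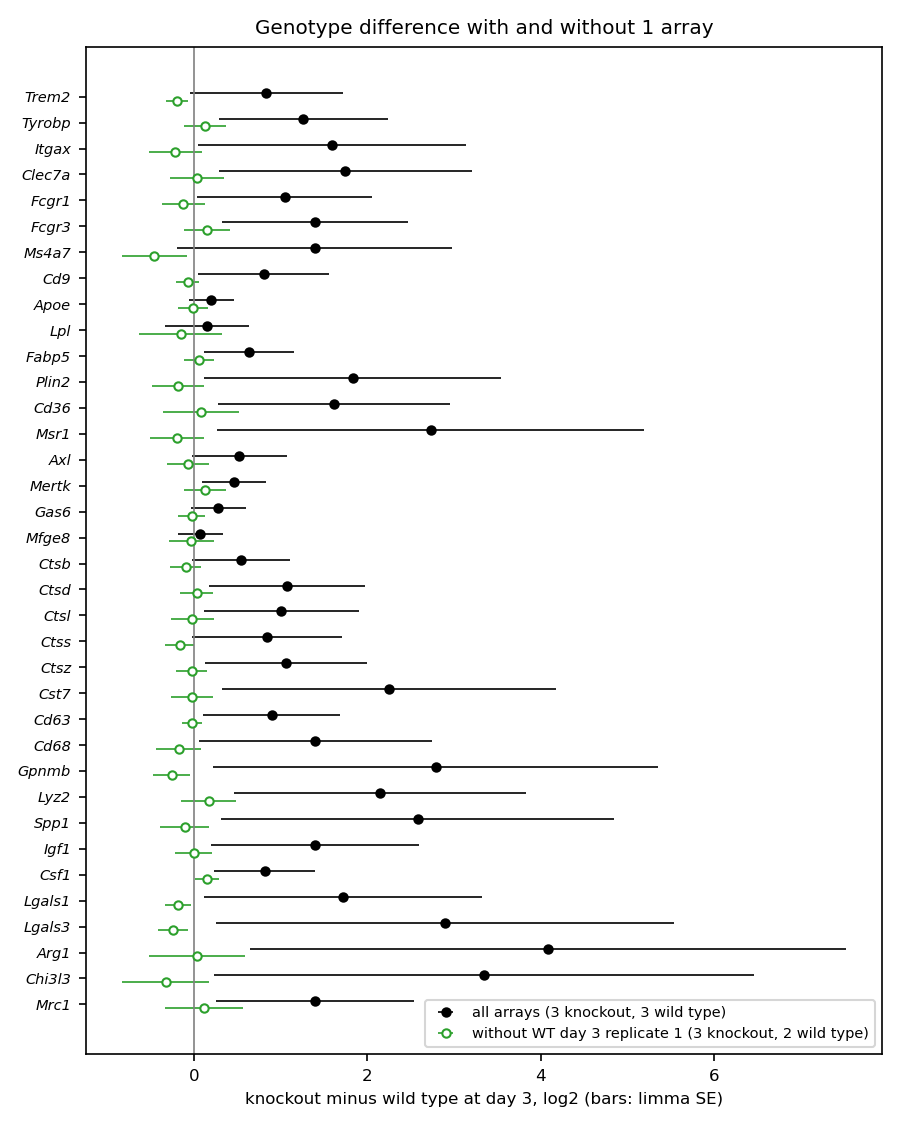
Knockout minus wild type at day 3 on the log2 scale (x axis) for each of the 36 genes (y axis), with the limma standard error as bars. Filled points use all arrays and lie above 0 in 36 of 36 genes; open points leave out wild type (WT) day 3 replicate 1 and lie at or near 0, with a median of -0.03.

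Once wild type replicate 1 was left out, 3 members had every knockout array below both remaining wild type arrays, where 5.33% of all features did and 6.32% had the reverse. They were Trem2, at 4.58 to 4.76 against 4.85 and 4.87, Gpnmb, at 2.48 to 2.99 against 3.00 and 3.13, and Lgals3, at 5.77 to 6.18 against 6.24 and 6.27. Their unadjusted p-values in limma were 0.198, 0.277 and 0.227, with an adjusted p of 1.0 each.

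The knockout arrays also differed among themselves. Over the 5 day 3 arrays other than wild type replicate 1, the range of a member ran from 0.08 to 1.77 log2 units, with a median of 0.69. Knockout replicate 2 was the lowest of these 5 arrays in 21 of 36 members (37.5% of all features), and knockout replicate 3 the highest in 15 (21.9%). Plin2 read 4.41 on knockout replicate 2 against 5.10 to 5.30 on the other 4, and Cd68 read 4.75 against 5.20 to 5.53. It was the highest of the 5 in 2 of 36 members (27.2%). Markers of other cell types stood out on knockout replicate 2 in both directions, and their part in this was not tested. It was the lowest of the 5 arrays for 8 of 9 endothelial and mural markers, 9 of 15 monocyte and macrophage markers and 7 of 12 neutrophil markers. It was the highest for 9 of 12 neuron markers, 9 of 15 homeostatic microglia markers, 6 of 11 astrocyte markers and 5 of 9 oligodendrocyte markers. Within an array the spread between repeated spots of a probe was small, with SDs of 0.04 to 0.16 for 8 to 10 spots of Apoe and 10 of Csf1. The other members had 1 spot per probe, so theirs was not measured.

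The comparison of wild type day 3 with the sham asks, by the labels, what the occlusion changed. That of knockout day 3 with the sham also differs in genotype and slide, which cannot be told apart from the occlusion. Both share the single sham array, which is unreplicated and is taken to vary as the day 3 arrays do. Against the 5 day 3 arrays other than wild type replicate 1, the sham lay within their range in 17 of 36 members (53.3% of all features), below it in 13 (24.9%) and above it in 6 (21.8%). The 13 below were Arg1, Chi3l3, Mrc1, Fcgr1, Fcgr3, Apoe, Mertk, Mfge8, Ctsb, Ctsd, Ctss, Cd63 and Lgals1. The 6 above were Clec7a, Itgax, Igf1, Cst7, Gpnmb and Csf1. With quantile normalization these counts became 15 within, 7 below and 14 above, with Apoe and Cd63 then above, while Arg1, Chi3l3, Mrc1, Fcgr1, Fcgr3, Mertk and Mfge8 were below under each scaling tried.

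**Figure D5:**
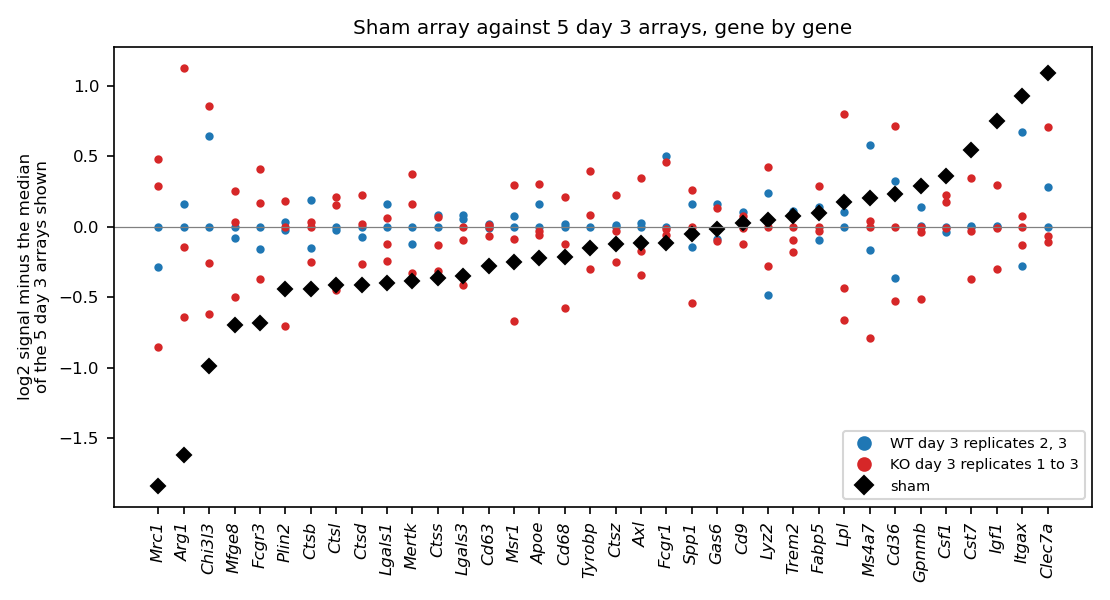
Log2 signal minus the median of the 5 day 3 arrays shown (y axis) for the 36 genes (x axis), ordered by the sham (black diamonds); wild type (WT) day 3 replicates 2 and 3 are blue and knockout (KO) day 3 replicates red. Mrc1, Arg1 and Chi3l3 lie lowest on the sham and Clec7a highest, and the sham lies within the 5 arrays in 17 of the genes.

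In the test of wild type day 3 against sham, 0 of 36 members passed in limma (0.0129% of all features), with 0 at an unadjusted p under 0.05 (1.12%). With wild type replicate 1 in the group, 33 members were lower than sham (45.9% of all features) and 3 higher (54.1%), Mrc1, Apoe and Mfge8, with a median of -1.02 (all features 0.03). Without it 26 were higher and 10 lower (50.7% and 49.3%) and the median was 0.18, with 0 members past the threshold (0.0257%) and 2 at an unadjusted p under 0.05 (4.52%). These were Mrc1, at 1.69 (unadjusted p = 0.0395), and Igf1, at -0.75 (unadjusted p = 0.0474), each with a limma adjusted p of 0.769.

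Knockout day 3 against sham likewise had 0 of 36 members past the threshold (0.0129%) and 0 at an unadjusted p under 0.05 (1.3%), with 22 members higher (50.4%), 14 lower (49.6%) and a median of 0.10. Mrc1 differed by 1.81, Arg1 by 1.73 and Chi3l3 by 0.98, on the side of higher values at day 3, and Itgax by -0.95, Clec7a by -0.92 and Igf1 by -0.75. When wild type replicate 1 was left out, which changes only the estimate of the spread, Mrc1 and Igf1 had unadjusted p-values of 0.0259 and 0.0388 (4.91% of all features were under 0.05) and no member passed in limma after adjustment (0.0343% of all features did).

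Other genes of the same pathways followed the pattern of the arrays. Of 10 TREM2 signalling partners, 10 were lower on wild type replicate 1 than on each other array (34.3% of all features), among them Ptpn6, a phosphatase of inhibitory receptors, at -2.73 against 0.78 to 0.97. Spi1, the myeloid transcription factor PU.1, read -6.06 against -2.81 to -2.38, and Hcst, an adaptor related to Tyrobp in function, -2.78 against 0.16 to 0.93. Of 20 further lysosomal genes 19 were lower there, with the vacuolar proton pump gene Atp6v0d2 not well above background against -4.95 to -4.07 elsewhere, the ceramidase gene Asah1 at -0.56 against 0.76 to 1.39 and Laptm5 at -0.55 against 2.12 to 2.51.

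Of 12 transcription factors linked to the lysosomal and lipid programme, 11 were lower on that array, with Tfeb at -3.39 against -2.10 to -1.86, Tfec not well above background against -4.86 to -3.18 elsewhere and Atf3 at -4.63 against 0.08 to 1.47. Among other clearance genes 13 of 16 were lower and 3 higher, Elmo1 being one of the latter at -2.22 against -3.77 to -2.62, with Dock1, which acts with Elmo1 in engulfment, at 0.25 against 1.63 to 2.13. The receptor gene Cd300lf read 1.62 against 2.44 to 3.81.

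Of other lipid handling genes, 11 of 16 were lower on that array and 4 higher. Fabp4, a fatty acid carrier of macrophages and endothelium, read -5.34 against 0.28 to 1.95, while Fabp3, a carrier also found in neurons, read 3.24 against 0.05 to 1.51 and the lipid transfer protein gene Pltp 0.36 against -0.97 to -0.12. In knockout against wild type 0 of the measured genes of these 5 lists passed in either direction (0% of all features), with or without wild type replicate 1. Without that array 16 of 16 lipid handling genes were lower in knockout (49.6% of all features), with a median of -0.16. Knockout replicate 2 was the lowest of the 5 other day 3 arrays in 8 of these 16 (37.5%). The lean was not particular to this list. Lower too were 9 of 10 TREM2 partners, 9 of 9 endothelial and mural markers and 11 of 12 neuron markers. Of oligodendrocyte markers 8 of 9 were higher, and of homeostatic microglia markers 10 of 15 (50.4% of all features). On such counts slide and genotype cannot be told apart.

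Markers of several cell types moved with the members on wild type replicate 1, and their part in the members' values was not tested. Neuron markers were all higher on it, 12 of 12 (43.9% of all features), with a summed linear signal of 232 against 16.9 to 64.8. Monocyte and macrophage markers were lower in 13 of 15 (34.3% of all features), with a sum of 30.4 against 142 to 248. Endothelial and mural markers were lower in 9 of 9 (17.4 against 63.5 to 139). Homeostatic microglia markers were lower in 10 of 15 and higher in 4, with a sum of 61.5 against 106 to 130. Among the defining markers of resting microglia, P2ry12 read 0.14 against -1.03 to -0.36, Tmem119 0.22 against 1.08 to 1.57 and Cx3cr1 2.86 against 3.14 to 4.33, genes chosen here after their values were seen.

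Neutrophil markers were lower on that array in 8 of 12 (34.3% of all features) and higher in 2 (43.9%). Their sum was 43.0 against 29.7 to 73.2. Csf3r, higher there at 5.40 against 4.62 to 5.32, made up most of that sum, so the sum says little of the other markers. S100a8 read -3.21 against 0.43 to 3.41 and S100a9 -2.19 against 1.53 to 4.40, genes picked outside the naming rule given below. Camp and Ngp, which that rule names, did not fall. Camp read -3.036 against -4.282 to -3.041, and Ngp -7.37 against -8.98 to -5.10. The granulocyte collagenase gene Mmp8, read at -2.30 to -0.13 on the others, was not well above background there. Astrocyte markers were lower in 4 of 11 and higher in 4, near the shares of all features (34.3% and 43.9%). Their sum was 58.6 against 103 to 125. Most of that fall came from Vim, at 0.94 against 5.11 to 5.51, so the sum says little of the other astrocyte markers. Oligodendrocyte markers were lower in 2 of 9 (114 against 66.1 to 153). Lymphocyte markers were lower in 0 of 6 and higher in 1, Cd4, with a sum of 2.72 against 1.18 to 1.44. On the sham, where the alternative activation genes were low, neutrophil markers were below all 5 of those day 3 arrays in 9 of 12, endothelial and mural markers in 6 of 9 and monocyte and macrophage markers in 5 of 15 (24.9% of all features). Neuron markers were above all 5 in 5 of 12, oligodendrocyte markers in 4 of 9 and homeostatic microglia markers in 5 of 15 (21.8%). The part of these markers in the members' values was not tested either. Cd14 and Vim each stand in more than 1 of the lists used here.

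Since 35 of the members were low together on 1 array, the 250 bases before each RefSeq transcription start (assembly GRCm38.p6) were searched on both strands for 3 motifs: CACGTG, the core of the element bound by TFEB and MITF, GGAAGT, a core bound by PU.1 and related factors, and TGAGTCA, the AP-1 site. Windows were on hand for 29 of the 36 members, 35 windows in all. CACGTG was in 2 of the 35 windows (6.02% of all 32851 windows), those of Ctsd and Ctsl. TGAGTCA was in 2 of the 35 (4.46%), those of Cd68 and Itgax. GGAAGT was in 10 of the 35 (19.7%). These belonged to 10 members, Cd36, Cd63, Chil3, Cst7, Fcgr1, Itgax, Lyz2, Mrc1, Ms4a7 and Spp1. These are matches of letters, not sites of binding. The windows of 3 members are shown as examples of each motif, chosen after the matches were seen, 5′ to 3′ on the strand of the gene, with the motifs in capitals.
Ctsd: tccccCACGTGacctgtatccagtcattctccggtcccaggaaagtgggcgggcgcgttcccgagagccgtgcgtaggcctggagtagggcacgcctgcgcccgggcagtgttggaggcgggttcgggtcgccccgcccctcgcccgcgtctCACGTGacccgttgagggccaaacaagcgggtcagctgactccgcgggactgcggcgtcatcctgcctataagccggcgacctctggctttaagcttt
Itgax: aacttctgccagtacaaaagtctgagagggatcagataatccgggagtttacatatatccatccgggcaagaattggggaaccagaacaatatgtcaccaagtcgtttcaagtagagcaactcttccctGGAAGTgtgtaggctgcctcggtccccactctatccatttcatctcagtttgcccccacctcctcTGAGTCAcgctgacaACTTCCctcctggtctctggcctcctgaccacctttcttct
Chil3: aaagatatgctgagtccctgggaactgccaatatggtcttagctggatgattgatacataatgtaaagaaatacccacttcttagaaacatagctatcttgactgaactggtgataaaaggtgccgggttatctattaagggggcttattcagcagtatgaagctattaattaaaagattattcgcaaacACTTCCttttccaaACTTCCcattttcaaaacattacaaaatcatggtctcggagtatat
In GRCm38.p6 these are chr7:142387828-142388077 on the minus strand for Ctsd, chr7:128129300-128129549 on the plus strand for Itgax and chr3:106167565-106167814 on the minus strand for Chil3. The 2 CACGTG matches of Ctsd begin 245 and 98 bases before the start. Itgax holds GGAAGT at 121 and, as ACTTCC, at 41 bases and TGAGTCA at 56, and Chil3 holds ACTTCC at 60 and 46. Ctsd, Itgax and Chil3 were 6.74-, 31.0- and 840-fold lower on wild type replicate 1 than on the next lowest array.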

How the data were processed

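Agilent Feature Extraction 11.5.1.1, per the submitters' processing notes, made the deposited scanner files, whose processed intensity is background-subtracted and detrended within each array, per the file headers. The deposited value table holds a linear ratio, found to be the processed signal over the array's 75th percentile to within 0.0428%; its column medians were 0.0942 to 0.107, and it served as an alternative. Each array had 43020 spots other than controls, 31177 to 34029 of them well above background, and 0 saturated; precision is limited by how many arrays there are. The processed signal was taken to log2 minus the array's 75th percentile, outlier-flagged spots were dropped (28 of 39429 probes lost), spots of a probe averaged, probes kept that were well above background on 3 or more of the 7 arrays, and the brightest probe taken per gene. Accessions gave names through RefSeq (28315 of 39401 probes).

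A model of the 3 groups was fitted with limma 3.58.1 in R 4.3.3 (lmFit, eBayes; 4 residual and 1.68 prior degrees of freedom), two-sided, Benjamini-Hochberg over 23312 features, threshold 0.05. Members, lists and the rule for named genes (16 members with fitted differences, up to 3 genes per list by smallest p) were chosen with earlier results of these data known. Some list genes are named outside that rule, among them P2ry12, Tmem119, Cx3cr1, S100a8, S100a9, Csf3r and Vim. Fitted differences are also given for members outside the 16, among them Msr1, Plin2, Cd36, Ms4a7, Chi3l3 and Igf1. Replicate numbers, given by the titles, were not used to pair the samples. Simulated data held 200 changed features in knockout against wild type. Their noise was first set from the 6 day 3 arrays, wild type replicate 1 included. Limma then found 1.49%, 32.8% and 54.5% of log2 changes of 1, 2 and 4, with 4 false calls. A second run set the noise without wild type day 3 replicate 1 and found 34.3%, 76.1% and 84.8%, with 11 false calls. That run changed the noise only, so its rates are not the recovery of the fit that leaves this array out. Plots used Python 3.11.15 and matplotlib 3.10.9.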

Additional observations from a re-analysis of the deposited data

How the results depend on the processing

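Under every alternative run, 0 members passed in any comparison (Arg1 was not measured with probes above background on all 7 arrays). For knockout against wild type, array weights (0.0513 for wild type day 3 replicate 1) gave 2 genes called, a member median of -0.0057, 18 members higher, and Trem2 at -0.18, Clec7a -0.18, Itgax -0.45, Apoe -0.014, Lpl -0.094, Axl -0.022, Cst7 -0.10, Gpnmb -0.27 and Lgals3 -0.11. Leaving out 1 replicate at a time gave member medians of -0.028 to 1.93 and 11 to 36 members higher; only the fits without wild type replicate 1 (with or without the sham) turned the median, and the ranges over these fits were -0.19 to 1.36 for Trem2, -0.21 to 2.74 for Itgax, -0.0097 to 0.35 for Apoe, -0.30 to 0.43 for Lpl, -0.065 to 0.82 for Axl, -0.023 to 3.40 for Cst7, -0.26 to 4.35 for Gpnmb, -0.10 to 4.0 for Spp1 and -0.24 to 4.48 for Lgals3. Lpl was -0.15 without wild type replicate 1 and -0.30 without knockout replicate 3.

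For wild type against sham, 3 genes were called in the main fit, 0 with normexp or with probes above background on all 7 arrays, 1 with quantile normalization or median centring, 147 with array weights (member median 0.19, 24 members higher) and 0 to 6 leaving out 1 replicate (medians -1.52 to 0.18, 1 to 26 members higher). For knockout against sham the counts were 3, 0, 1, 94 and 0 to 8 in the same order, and the member median was -0.18 with quantile normalization (9 members higher). Normexp moved the median of all features in that comparison by 0.10 and median centring by 0.13. With the replicate number as a block 0 genes were called against sham in both comparisons, with 1 member higher in wild type and 4 in knockout (median -0.98). Same-numbered wild type and knockout arrays correlated at -0.38, -0.56 and 0.35 after each gene's group mean was subtracted. With 3 wild type arrays, 1 of them far from the others, these values say little about pairing. The numbers were not used as pairs. The sham lay below the 5 other day 3 arrays in 7 members and above in 14 with quantile normalization, in 14 and 5 with median centring and in 12 and 5 with the mean of probes, against 13 and 6; these alternatives for the values by array were chosen after seeing the data. The slide as a block could not be fitted, since each group lies on 1 slide. The cause of these changes was not tested.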
